A study of Mus musculus with 4 samples.

Results

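The genes described here are 41 genes of glutathione, thioredoxin and antioxidant metabolism, out of 28137 genes named on an Agilent mouse expression array. They were taken by gene symbol from what their products are known to do. No measured value enters that rule, but the list was drawn up with earlier results of these data known. The probe with the highest mean log2 signal over the 4 arrays stood for each gene. Of the 41 genes, 40 were tested, since the probe of Gsta4 cleared the background on none of the arrays, and 38 were well above background on all 4 arrays.

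The cells were granulocytes grown from bone marrow of male C57BL/6 mice of 2 genotypes, miR-223 KO with 2 arrays and wild type with 2 arrays. Both genotypes were kept for 4 days with 40 ng/ml of GM-CSF, a cytokine that drives the growth and maturation of granulocytes and macrophages, and the immature granulocytes expanding in these cultures were then sorted. Total RNA was labelled with the dye Cy3 and each sample was hybridised to an array of its own, with all 4 arrays on 1 slide read in 1 scan. The labels name neither the knockout allele, the age of the mice nor the surface markers of the sort. They also do not say whether the replicates of a genotype came from separate mice or cultures, so that p-values measure only the spread between these samples, which may be technical.

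Glutathione is a small thiol peptide that glutathione peroxidases use to reduce peroxides and glutathione transferases attach to reactive compounds, and glutathione reductase restores it with electrons from NADPH. Peroxiredoxins reduce peroxides through their own cysteines and are recharged by thioredoxin, which thioredoxin reductase keeps reduced, again at the cost of NADPH. Superoxide dismutases and catalase deal with superoxide and hydrogen peroxide, both of which granulocytes make in quantity, and the transcription factor Nrf2 (Nfe2l2), held in check by Keap1, drives many of these genes through a promoter motif called the antioxidant response element. The microRNA miR-223 is abundant in neutrophils and their precursors and lowers target mRNAs through pairing of its seed.

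The sequences below are the deleted microRNA and the promoter stretches around an antioxidant response element core in genes described later. The mature microRNA (RefSeq, GRCm38.p6, chrX:96242884-96242905, plus strand) has its seed, bases 2 to 8, in capitals.
mmu-miR-223-3p: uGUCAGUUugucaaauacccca
The 7 DNA letters that pair with this seed, AACTGAC, were found in 0 of the 66 probes of the 41 genes, read on the strand given for the probe. Over the whole array they were found in 153 of 41174 probes (0.372%), each 60 bases long. A probe covers only a small piece of a transcript, so this describes the probes and not the messages.
The motif core searched in promoters was TGACNNNGC, read on both strands in the RefSeq window (GRCm38.p6) from 250 bases before to 50 bases after a gene's start. Of the 41 genes, 36 were matched, with 45 windows, and 9 genes had a match: Gclm, Gsta3, Gstm5, Mgst1, Nfe2l2, Prdx1, Sod1, Srxn1 and Txnrd1. Across all genes 3781 of 27025 (14.0%) had one, and across all windows 4071 of 32851 (12.4%). A stretch around the core is shown for 5 of the 9 genes, with the core in capitals and all stretches written on the plus strand. These 5 were picked by their values, as genes whose genotypes did not overlap, and for a core before the start. Txnrd1 and Mgst1 have more than 1 start, and only 1 window of each held the core.
Prdx1, chr4:116685440-116685500, core 133 bases before the start: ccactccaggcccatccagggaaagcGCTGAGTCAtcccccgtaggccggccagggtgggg
Txnrd1, chr10:82859088-82859148, core 92 bases before the start: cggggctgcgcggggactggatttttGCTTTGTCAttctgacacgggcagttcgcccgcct
Gstm5, chr3:107895786-107895846, core 42 bases before the start: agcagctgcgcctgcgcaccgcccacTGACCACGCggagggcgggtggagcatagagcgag
Mgst1, chr6:138140445-138140505, core 56 bases before the start: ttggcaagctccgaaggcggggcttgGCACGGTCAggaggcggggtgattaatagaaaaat
Sod1, chr16:90220680-90220740, core 56 bases before the start: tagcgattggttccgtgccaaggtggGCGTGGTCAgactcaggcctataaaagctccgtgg
A match of these letters is a description of the window and does not show that Nrf2 binds there.

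Values are given as log2 levels, where 0 is the 75th percentile of an array's probes, and differences are log2 levels in miR-223 KO minus wild type with the standard error of limma. That percentile was an intensity of 514 and 493 in the knockout, against 586 and 486 in the wild type, and the share of probes well above background was 62.2% and 63.0% on the knockout arrays, against 63.5% and 57.6% on the wild-type arrays. Over all genes tested the Pearson correlation was 0.994 between the knockout arrays and 0.990 between the wild-type arrays, against 0.985 to 0.991 between genotypes. All 12 neutrophil granulocyte markers on the array were well above background on all 4 arrays, as were the macrophage and monocyte markers. The granulocyte label was met by the summed levels of the neutrophil markers. These were 4206 and 4663 on the knockout arrays, against 3827 and 4049 on the wild-type arrays (linear scale, 1 being the 75th percentile). Of the 12, 10 had higher values in the knockout, 5 of them without overlap (41.7%, against 28% of all genes tested). The other 2 were lower, Mpo without overlap. Of 16 macrophage and monocyte markers, 14 had lower values in the knockout, 11 of them without overlap (68.8%, against 20.1% of all genes tested), with a median difference of -1.09. The summed level of the same markers was 187 and 207 on the knockout arrays, against 149 and 165 on the wild-type arrays, since it is carried by a few genes of strong signal. Of 9 mast cell and basophil markers tested, 8 had lower values in the knockout without overlap (88.9%), the summed level of the list was 46.1 and 24.4 on the knockout arrays, against 64.4 and 72.1 on the wild-type arrays, and the defining mast cell genes Mcpt4, Cma1 and Tpsb2 cleared the background on none of the 4. Of 12 dendritic cell and MHC class II markers, 9 had lower values in the knockout, 6 of them without overlap (50%), and their summed level was 186 and 125 on the knockout arrays, against 176 and 190 on the wild-type arrays. The summed level of eosinophil markers was 18.4 and 24.7 on the knockout arrays, against 10.8 and 59.8 on the wild-type arrays, so that the second wild-type array stood apart. The part of these other cell types in the differences below was not tested, and in a sorted population fewer cells of a type and less RNA per cell cannot be told apart.

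None of the 40 genes passed the test at an adjusted p of 0.05 (limma with Benjamini-Hochberg adjustment over 16578 genes), and 0 genes of the whole array did (0%). The lowest adjusted p among the 40 was 0.289, for Gpx7, which entered the test only through the knockout arrays, and 0.303 among the 38 genes well above background on all 4 arrays when the test was kept to such genes. At an unadjusted p under 0.05 stood 5 of them on the higher side in the knockout, Gpx7, Gsr, Gstm1, Gstt1 and Mgst2, against 8.04% of all genes tested, and 2 on the lower side, Gclc and Prdx4, against 5.55% of all genes. Gpx7 and Gstt1 were measured in the knockout alone, so that they had to lie on the higher side. With the test kept to genes well above background on all 4 arrays, 4 of 38 were higher and 2 lower at this p, beside 1162 and 948 of 15215 genes. Leaving out 1 array changed these unadjusted counts to 2 and 1 without the first knockout array, 1 and 0 without the second, 1 and 4 without the first wild-type array and 3 and 0 without the second. The genotypes did not overlap, with the knockout on the higher side, in 14 of the 40 genes (35%), against 28% of all genes tested, and with the knockout on the lower side in 9 (22.5%), against 20.1% of all genes. Gpx7 and Gstt1 are among the 14, and over genes well above background on all 4 arrays the counts were 12 of 38 on the higher side, against 26.7% of all such genes, and 9 on the lower side, against 21.1%. The other 17 overlapped. These shares lie near those of the whole array, and the median difference of 0.08 over the 40 genes stood beside a median of 0.03 over all genes tested.

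The values went both ways. Of the 40 genes, 24 had a higher mean in the knockout and 16 a lower one. This split was 21 to 19 after quantile normalization and 20 to 20 after scaling on the spike-in probes. Of all genes tested, 54.8% had a higher mean in the knockout. That share was 52.7% after quantile normalization and 42.6% after spike-in scaling, and the splits of classes and lists below are to be read beside it. Over the 38 genes well above background on all 4 arrays, which leaves out Gpx7 and Gstt1, the split was 22 to 16. Of all such genes, 52.9% had a higher mean. The range was from -0.64 (Prdx4) to 2.90 (Gpx7), and the median gap between replicate arrays was 0.17 for the knockout and 0.24 for the wild type on the same scale.

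**Figure D1:**
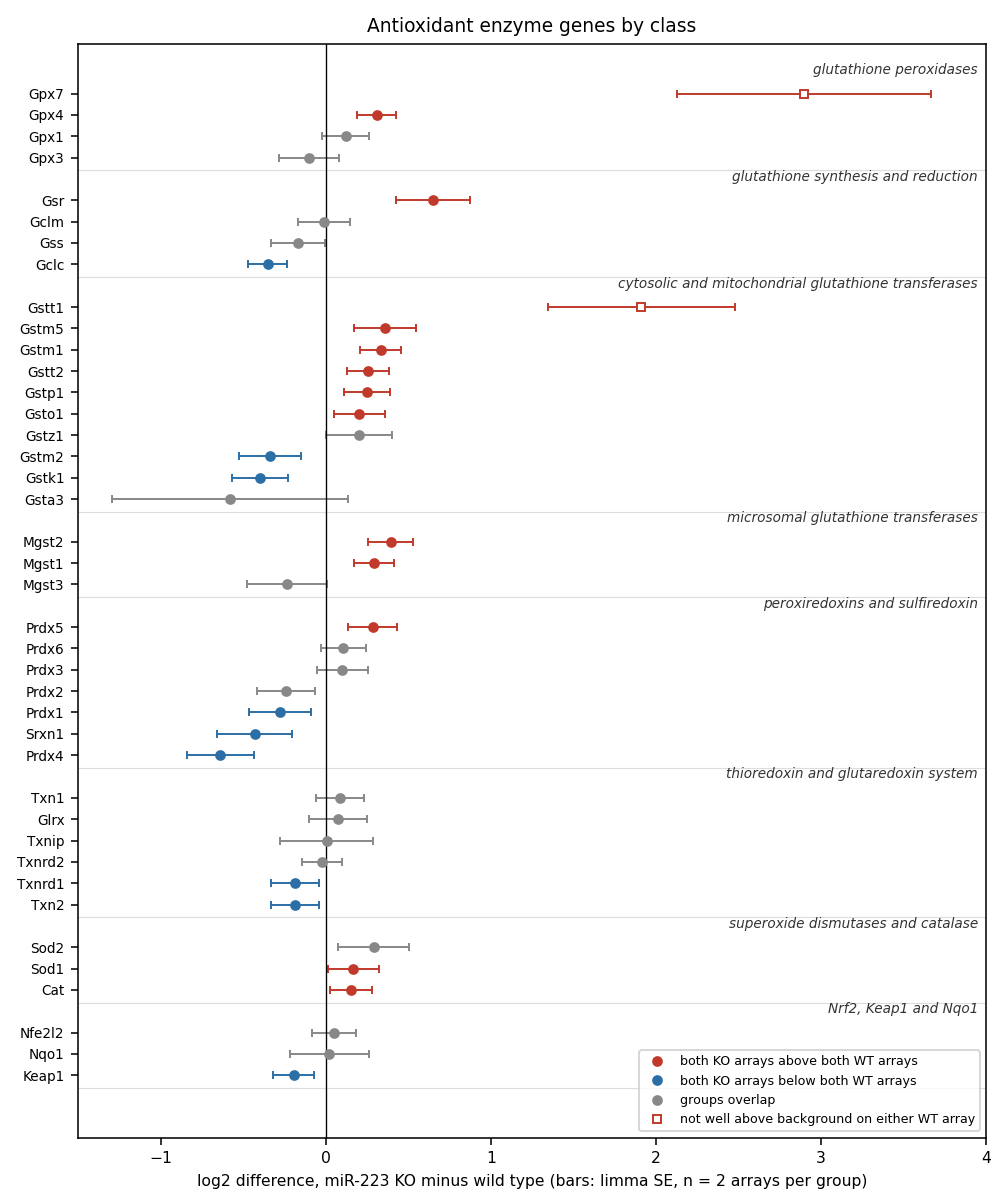
Log2 difference, miR-223 KO minus wild type, for the 40 tested genes by enzyme class, with limma standard errors as bars (2 arrays per group) and colour for whether the knockout arrays lay above (red), below (blue) or among (grey) the wild-type arrays. Gpx7 and Gstt1 (open squares) were not well above background on the wild-type arrays and have wide bars, as has Gsta3, and the other genes lie between -0.64 (Prdx4) and 0.65 (Gsr).

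Among the glutathione peroxidases, 3 of 4 genes had higher values in the knockout and 1 a lower value, with a median of 0.22. The split was 2 to 2 after quantile normalization. Gpx7, tested only through the knockout arrays, had to lie on the higher side. The 3 genes well above background on all 4 arrays were split 2 to 1, with a median of 0.12. Gpx1, the main cytosolic enzyme that reduces hydrogen peroxide with glutathione, stood at 8.38 and 8.59 on the knockout arrays, against 8.40 and 8.33 on the wild-type arrays. The groups overlapped, and the difference was 0.12 ± 0.14, or -0.01 after quantile normalization. Gpx4, which reduces lipid hydroperoxides within membranes and protects cells from ferroptosis, stood at 6.28 and 6.32 on the knockout arrays, against 6.00 and 5.99 on the wild-type arrays (probe at chr10:79518691-79518842, mm9). Both knockout values were above both wild-type values, with a gap between replicates far smaller than the difference of 0.31 ± 0.12 (adjusted p = 0.373). The size depended on the scaling, with 0.20 after quantile normalization and 0.23 after spike-in scaling. Gpx3, the secreted plasma enzyme, had overlapping groups and a difference of -0.10 ± 0.18.

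Gpx7, a peroxidase of the endoplasmic reticulum, was well above background on both knockout arrays and on neither wild-type array (probe at chr4:108073303-108073362, mm9). Its levels were -4.10 and -5.76 on the knockout arrays, against -8.59 and -7.06 on the wild-type arrays, where the values are only a bound. The fitted difference was 2.90 ± 0.77 (unadjusted p = 0.016, adjusted p = 0.289). Set against the lowest signal that counts as well above background on each wild-type array, the knockout mean was 2.09-fold higher. This holds only under this background subtraction and is not a lower limit. The second knockout array, at -5.76, lay below that signal on the second wild-type array, which was -5.39. With the normexp background correction, which lifts dim signals, the difference was 0.30, so its size rests on how background was taken off.

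Among the genes that make and restore glutathione, Gsr and Gclc stood on opposite sides. Gsr, the reductase that turns oxidised glutathione back with NADPH, stood at 5.59 and 5.82 on the knockout arrays, against 4.79 and 5.31 on the wild-type arrays (probe at chr8:34808399-34808458, mm9). Both knockout values were above both wild-type values, 1.57-fold on average, while the wild-type arrays were 0.52 apart from each other. The difference was 0.65 ± 0.23 (unadjusted p = 0.039, adjusted p = 0.342), and over the 15 alternatives it ranged from 0.39, without the first wild-type array, to 0.91, without the second. Its other probes gave 0.55 and 0.51, so all 3 probes had the same sign.

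Gclc, the catalytic subunit of glutamate-cysteine ligase and the rate-limiting step of glutathione synthesis, stood at 1.22 and 1.21 on the knockout arrays, against 1.59 and 1.54 on the wild-type arrays (probe at chr9:77641296-77641355, mm9). Both knockout values were below both wild-type values and the replicates lay close together, with a difference of -0.35 ± 0.12 (unadjusted p = 0.037, adjusted p = 0.340). The wild-type level was 1.28-fold the knockout level. Gclm, the modifier subunit of the same ligase, had overlapping groups and a difference of -0.01 ± 0.16, while its other probe gave 0.29. Gss, which adds glycine in the last step, had overlapping groups and a difference of -0.17 ± 0.16. In this class 1 of 4 genes was higher and 3 were lower, with a median of -0.09.

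Cytosolic and mitochondrial glutathione transferases formed the class with the most genes, 10 of 11 tested. In the knockout 7 had higher values and 3 lower ones, with a median of 0.23, and the split was the same after quantile normalization and spike-in scaling. Gstt1, tested only through the knockout arrays, had to lie on the higher side. The 9 genes well above background on all 4 arrays were split 6 to 3, with a median of 0.20. Members of the mu, alpha and pi families have near-identical copies in the mouse genome, so a probe named for 1 of them may also take up RNA of another. Gstm1, a major mu-class enzyme, stood at 6.85 and 6.74 on the knockout arrays, against 6.44 and 6.48 on the wild-type arrays (probe at chr3:107815180-107815239, mm9). The groups did not overlap, with a difference of 0.33 ± 0.12 (unadjusted p = 0.049, adjusted p = 0.365), and the other probe gave 0.28. At the main probe it was 0.20 after quantile normalization and 0.25 after spike-in scaling.

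The other mu-class genes did not move as one. Gstm5, whose promoter stretch is printed above, stood at -1.32 and -1.73 on the knockout arrays, against -1.81 and -1.95 on the wild-type arrays, a difference of 0.36 ± 0.19 without overlap. Gstm2 stood at -0.82 and -0.64 on the knockout arrays, against -0.59 and -0.20 on the wild-type arrays, a difference of -0.34 ± 0.19 on the other side, also without overlap. Neither passed the test, with adjusted p of 0.473 for Gstm5 and 0.495 for Gstm2.

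Gstt1, a theta-class enzyme, was well above background on both knockout arrays and on neither wild-type array (probe at chr10:75249693-75256857, mm9, a span longer than the probe itself). Its levels were -4.45 and -3.08 on the knockout arrays, against -6.13 and -5.23 on the wild-type arrays, where they are again only a bound. The fitted difference was 1.91 ± 0.57 (unadjusted p = 0.024, adjusted p = 0.314), which is 3.76-fold. The rule used for Gpx7 gave this same fold, so it adds no margin for error and is not a lower limit. The gene's own wild-type signals lay above the lowest signal that counts as well above background. With normexp the difference was 0.44, and without 1 array at a time it lay between 1.22 and 2.60. Gstt2, the other theta-class gene of the list, was measured on all arrays and stood at 0.18 and 0.20 on the knockout arrays, against 0.01 and -0.14 on the wild-type arrays. It did not overlap either, with a difference of 0.26 ± 0.13.

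Gstk1, a transferase of mitochondria and peroxisomes, stood at -0.06 and -0.38 on the knockout arrays, against 0.09 and 0.27 on the wild-type arrays. Both knockout values were lower, and the difference was -0.40 ± 0.17 (adjusted p = 0.405). Gstp1, the pi-class enzyme, and Gsto1, which can reduce dehydroascorbate, lay above the wild type without overlap, with differences of 0.25 ± 0.14 and 0.20 ± 0.15. The groups of Gsto1 all but touched, at 5.474 on the second knockout array and 5.469 on the second wild-type array. Gstz1, an isomerase of tyrosine breakdown, had overlapping groups and a difference of 0.20 ± 0.20. Gsta3 had a difference of -0.58 ± 0.71, the widest error among genes measured on all arrays, since its wild-type arrays stood at -5.03 and -3.09 beside knockout values of -5.02 and -4.25. Its sign depended on 1 array: the difference was 0.40 without the second wild-type array and -1.55 without the first.

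The microsomal glutathione transferases are membrane proteins of a family that also holds leukotriene C4 synthase, and Mgst2 can itself make leukotriene C4. Mgst2 stood at 7.41 and 7.26 on the knockout arrays, against 7.01 and 6.88 on the wild-type arrays (probe at chr3:51486449-51486508, mm9). Both knockout values were above both wild-type values, 1.31-fold on average, with a difference of 0.39 ± 0.14 (unadjusted p = 0.039, adjusted p = 0.342). Mgst1, which detoxifies lipid peroxides, stood at 5.06 and 5.11 on the knockout arrays, against 4.76 and 4.83 on the wild-type arrays. It had a difference of 0.29 ± 0.12 without overlap, and 0.32 at its other probe. Mgst3 overlapped, with -0.23 ± 0.24 at its main probe and -0.27 at the other. The class thus had 2 genes higher and 1 lower, also after quantile normalization and spike-in scaling.

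**Figure D2:**
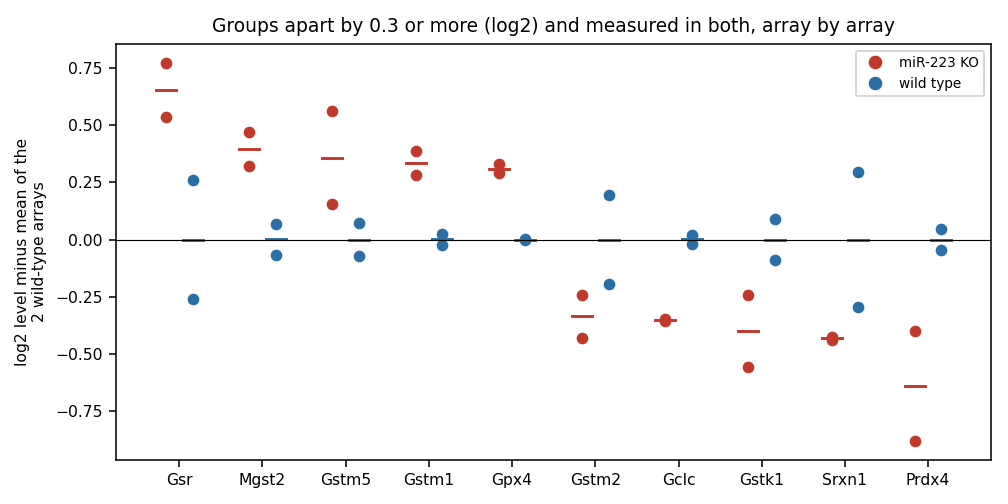
Log2 level of each array minus the mean of the wild-type arrays (0 on the axis), for genes well above background on all 4 arrays whose genotypes did not overlap and differed by 0.3 or more. Points are arrays (red, miR-223 KO; blue, wild type) and horizontal marks are group means. Gsr, Mgst2, Gstm5, Gstm1 and Gpx4 lie above the wild type and Gstm2, Gclc, Gstk1, Srxn1 and Prdx4 below, and the replicate arrays of Gsr, Srxn1 and Prdx4 lie farther apart in 1 genotype than those of Gclc or Gpx4.

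Peroxiredoxins and sulfiredoxin had 3 genes of 7 with higher and 4 with lower values in the knockout, with a median of -0.24, and the same split after quantile normalization and spike-in scaling. Prdx4, the peroxiredoxin of the endoplasmic reticulum, stood at 1.33 and 0.86 on the knockout arrays, against 1.69 and 1.78 on the wild-type arrays (probe at chrX:151764882-151764941, mm9). Both knockout values were lower, with a difference of -0.64 ± 0.20 (unadjusted p = 0.030, adjusted p = 0.324), and the wild-type level was 1.56-fold the knockout level. A second, dimmer probe for a cDNA clone of the gene gave -0.91. Without the second knockout array the difference was -0.40, and without the first it was -0.88.

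Srxn1, the sulfiredoxin that repairs overoxidised peroxiredoxins and a known Nrf2 target, stood at 1.97 and 1.98 on the knockout arrays, against 2.11 and 2.70 on the wild-type arrays. The groups did not overlap but the wild-type arrays were far apart, and the difference was -0.43 ± 0.23 (adjusted p = 0.481). Its other probes gave -0.51 and -0.52. The size rested on the wild-type array used: -0.72 without the first wild-type array (adjusted p = 0.163) and -0.14 without the second.

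Prdx1, a cytosolic peroxiredoxin whose promoter stretch is printed above, stood at 4.98 and 5.01 on the knockout arrays, against 5.06 and 5.49 on the wild-type arrays. It showed the same pattern of close knockout values and spread wild-type values, with a difference of -0.28 ± 0.19. Prdx2, the second cytosolic enzyme, had overlapping groups and -0.24 ± 0.18. Prdx5, which reduces peroxides in mitochondria, peroxisomes and cytosol, stood at 6.83 and 6.92 on the knockout arrays, against 6.46 and 6.72 on the wild-type arrays. It lay above the wild type without overlap, with a difference of 0.28 ± 0.15. Prdx3, the mitochondrial enzyme, and Prdx6, which also has phospholipase activity, overlapped, with 0.10 ± 0.15 and 0.11 ± 0.14.

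The thioredoxin and glutaredoxin genes lay close to the wild type: all 6 had differences between -0.19 and 0.09, with 3 on each side, a split that was 1 to 5 after quantile normalization and after spike-in scaling. Txn1, the cytosolic thioredoxin, stood at 6.67 and 6.65 on the knockout arrays, against 6.45 and 6.70 on the wild-type arrays, with a difference of 0.09 ± 0.14 (-0.04 after quantile normalization). Txnrd1, the cytosolic reductase, stood at 4.17 and 4.18 on the knockout arrays, against 4.24 and 4.49 on the wild-type arrays. Txn2, the mitochondrial thioredoxin, stood at 3.74 and 3.56 on the knockout arrays, against 3.75 and 3.92 on the wild-type arrays. Both lay below the wild type without overlap, each by -0.19 ± 0.15. Txnip, which binds and inhibits thioredoxin, stood at 3.07 and 2.69 on the knockout arrays, against 3.20 and 2.55 on the wild-type arrays. Its genotypes overlapped fully, and the difference of 0.01 ± 0.28 changed sign with the scaling (-0.03 after quantile normalization). Glrx, the cytosolic glutaredoxin that removes glutathione from proteins, had 0.07 ± 0.17 with overlap.

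Txnrd2, the mitochondrial reductase, is a case where the probe decides the value. The probe that stood for it, made for a cDNA clone, gave -0.02 ± 0.12 with overlap. The other probes, made for the reference transcript, gave -0.59 and -0.52. The first of these stood at -1.52 and -1.69 on the knockout arrays, against -0.93 and -1.09 on the wild-type arrays, and the second at -2.36 and -2.48 on the knockout arrays, against -1.64 and -2.17 on the wild-type arrays. In both the knockout values were below the wild-type values.

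All 3 genes of superoxide dismutases and catalase had higher values in the knockout, also after quantile normalization and spike-in scaling, by 0.15 to 0.29. Sod1, the copper and zinc enzyme of the cytosol, stood at 6.33 and 6.29 on the knockout arrays, against 6.00 and 6.29 on the wild-type arrays. The second wild-type value nearly reached the knockout values, and the difference was 0.17 ± 0.15 (adjusted p = 0.661). Its other probes, both made for a cDNA clone and far dimmer, had the opposite sign, -0.45 and -0.47. Sod2, the manganese enzyme of mitochondria, stood at 6.03 and 6.35 on the knockout arrays, against 5.69 and 6.11 on the wild-type arrays, and overlapped, with 0.29 ± 0.22. Cat, the catalase of peroxisomes, stood at 2.40 and 2.39 on the knockout arrays, against 2.17 and 2.31 on the wild-type arrays, a difference of 0.15 ± 0.13 without overlap.

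The regulator Nrf2, encoded by Nfe2l2, showed no separation: it stood at 4.07 and 4.25 on the knockout arrays, against 4.10 and 4.13 on the wild-type arrays, a difference of 0.05 ± 0.13. A second probe of the reference transcript gave 0.03. A probe for a cDNA clone gave -0.98, and that value rested on 1 array, with -0.12 and -0.26 on the knockout arrays, against -0.05 and 1.63 on the wild-type arrays. Keap1, the adaptor that marks Nrf2 for degradation, stood at 2.58 and 2.66 on the knockout arrays, against 2.86 and 2.77 on the wild-type arrays. It lay below the wild type without overlap, with a difference of -0.19 ± 0.12 (adjusted p = 0.546). Nqo1, a quinone reductase and one of the best known Nrf2 targets, stood at -0.16 and 0.12 on the knockout arrays, against -0.32 and 0.23 on the wild-type arrays, with a difference of 0.02 ± 0.24 and full overlap. The split of these 3 genes, 2 higher and 1 lower, was 0 to 3 after spike-in scaling.

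The 9 genes with an antioxidant response element core near the start also went both ways. Gstm5, Mgst1, Sod1 and Nfe2l2 had higher means in the knockout, and Gclm, Gsta3, Prdx1, Srxn1 and Txnrd1 had lower means. Some of these signs turned with the processing. Nfe2l2 was lower after spike-in scaling, and as the mean of their probes Sod1 was -0.25 and Nfe2l2 -0.30. Gclm was higher with the median subtracted, and Gsta3 was 0.40 without the second wild-type array. Without overlap stood Gstm5, Mgst1 and Sod1 on the higher side and Prdx1, Srxn1 and Txnrd1 on the lower side. Of all genes tested, 28% lay on the higher side and 20.1% on the lower side without overlap, so such separation is common on these arrays. In Prdx1, Srxn1 and Txnrd1 the 2 knockout arrays were close to each other and the second wild-type array was the highest of the 4.

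**Figure D3:**
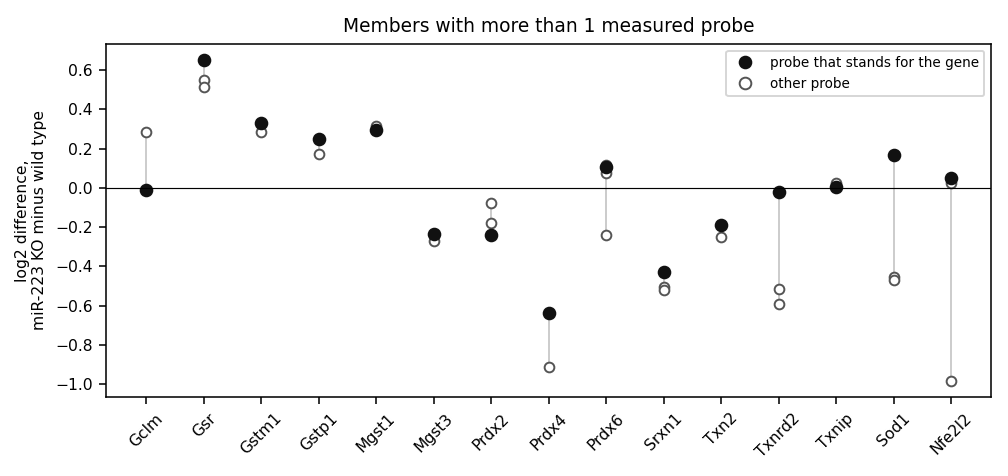
Log2 difference, miR-223 KO minus wild type, at each measured probe of the 15 genes that had more than 1. Filled points are the probes that stood for the gene and open points the other probes. In 4 genes, Gclm, Nfe2l2, Prdx6 and Sod1, the probes differed in sign, while those of Gsr, Gstm1, Mgst1, Prdx4 and Srxn1 lay on 1 side of 0.

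The 6 lists of 87 neighbouring genes, of which 72 were tested, were read in the same way, and none of these genes passed the test either (lowest adjusted p 0.249, for Ltc4s). In the knockout 44 were higher and 28 lower, with a median of 0.05, and 23 lay above the wild type without overlap (31.9%, against 28% of all genes) and 6 below (8.33%, against 20.1%). Among 11 tested genes of other glutathione peroxidases, transferases and their relatives, 8 were higher and 3 lower, a split that was the same after quantile normalization and spike-in scaling, and the median was 0.32, or 0.23 after spike-in scaling, 0.51 without the first knockout array and 0.098 without the second. The smallest p-values were those of Ltc4s, leukotriene C4 synthase, with a difference of 1.83 ± 0.36, of Gstt4, a theta-class transferase, and of Gstm4, with 0.32 ± 0.14. Gstt4 stood at -5.31 and -3.44 on the knockout arrays, against -7.18 and -7.21 on the wild-type arrays, where it was not well above background. By the rule used for Gpx7 it was 3.08-fold higher in the knockout. It was tested only through the knockout arrays and had to lie on the higher side. With genes well above background on all 4 arrays, the split of this list was 7 to 3, with a median of 0.28. As with Gstt1, this is a value near the background of the array.

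Among 12 tested genes of NADPH supply, which feeds both glutathione and thioredoxin reductases, 9 were higher and 3 lower, with a median of 0.11, a split that was 5 to 7 after quantile normalization and 7 to 5 after spike-in scaling. G6pdx, the glucose-6-phosphate dehydrogenase that opens the pentose phosphate pathway, stood at 6.73 and 6.82 on the knockout arrays, against 6.42 and 6.35 on the wild-type arrays. It did not overlap, with a difference of 0.39 ± 0.12 (unadjusted p = 0.030, adjusted p = 0.326). H6pd, its counterpart in the endoplasmic reticulum, had 0.42 ± 0.16, and Nadk, the kinase that makes NADP, had 0.36 ± 0.14, both without overlap.

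Among 13 tested genes of cystine uptake and glutathione breakdown 6 were higher and 7 lower, with a median of -0.03, and the same split under both scalings. Ggt5 and Dpep2, peptidases that act on glutathione conjugates, had 1.27 ± 0.31 and -0.88 ± 0.24, and Oplah, the oxoprolinase that returns glutamate, had 0.62 ± 0.31. Slc7a11, the cystine carrier, had -0.45 ± 0.64 and overlapped. The 14 other thioredoxin and glutaredoxin genes lay within -0.27 (Glrx5, a mitochondrial glutaredoxin) and 0.17 (Txndc17), with 8 higher and 6 lower, a split that was 5 to 9 after quantile normalization and 2 to 12 after spike-in scaling.

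The 15 tested Nrf2 targets and partners outside the 41 genes split 8 to 7, and 6 to 9 under both scalings, with a median of 0.01. Fth1, the ferritin heavy chain, had 0.35 ± 0.19 without overlap, and Mafk and Maff, small Maf proteins that pair with Nrf2, had -0.54 ± 0.34 and -0.84 ± 0.56. Hmox1, the haem oxygenase that Nrf2 drives, had -0.21 ± 0.27 with overlap. Of 7 methionine sulfoxide reductases, sestrins and related genes, 5 were higher and 2 lower, also under both scalings, with a median of 0.21. Sesn3, a stress-induced sestrin, and Msra, which repairs oxidised methionine, had 0.54 ± 0.16 and 0.45 ± 0.14 without overlap (adjusted p = 0.317 and 0.319), and Ccs, the copper chaperone of Sod1, had 0.21 ± 0.12.

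**Figure D4:**
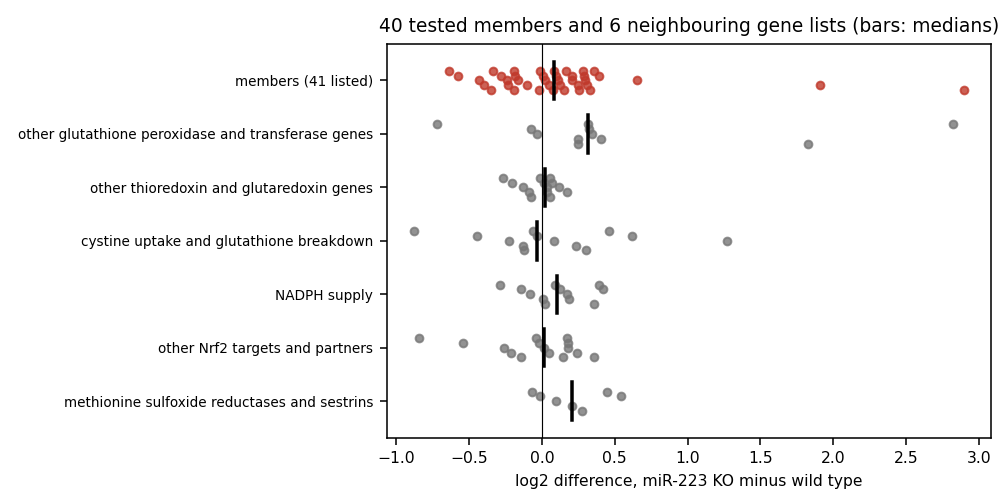
Log2 difference, miR-223 KO minus wild type, of the 40 tested antioxidant genes (red) and of 6 lists of neighbouring genes (grey), with 1 point per gene and a bar at each list's median. The medians lie between -0.03 and 0.32, the thioredoxin list spans the narrowest range, and the points beyond 1 are Gpx7, Gstt1, Gstt4, Ltc4s and Ggt5.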

How the data were processed

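RNA of 2 miR-223 KO and 2 wild-type samples was measured on 1-colour arrays. Agilent Feature Extraction 10.5.1.1 wrote the spots' intensity, already background-subtracted, per the file headers. The deposited log2 values of the same arrays served as an alternative, and how the authors made them is not given in the sources used here. They differed from the log2 of this intensity by a constant for each array, within 0.01 for 99.8% of values. Their median was 5.03 on each array, so this alternative is close to the one with each array's median subtracted. Controls were dropped, as were spots flagged as outliers (24 probes on at least 1 array). The processed intensity was put on the log2 scale, averaged over the spots that share a probe, and set relative to the 75th percentile of the array's 41174 probes. No spot was saturated (0 spots). Genes carry the name in the array files, with coordinates in mm9. Of 28137 genes, 16578 whose probe cleared the background on both arrays of 1 genotype or more were tested with limma 3.58.1 (lmFit and eBayes, two-sided, R 4.3.3), adjusted by Benjamini-Hochberg over all of them at 0.05. Precision is limited by having 2 arrays per genotype. The calculation was tested on simulated data.

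The 41 genes and all lists were chosen with earlier results of these data known. All 41 genes are named. Values are given on each array for genes without overlap and a difference of at least 0.3 or an unadjusted p under 0.05, for the member with the strongest signal of each class, and for some others to show overlap. In each neighbouring list up to 3 genes of smallest p are named, and a few more were added after their values were seen. For genes not well above background in the wild type, a fold was also taken by a rule. It sets the knockout mean against the lowest signal among probes well above background on each wild-type array, or the dim probe's own where higher. This fold is not a lower limit, since it depends on the background correction. The labels give replicate numbers alone, with no statement of what they share; the fit with these numbers as a block is among 15 alternatives, with other scalings, background corrections, filters, probe rules, names and arrays left out.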

Additional observations from a re-analysis of the deposited data

How the results depend on the processing

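None of the 41 genes was called under any of the 15 alternatives, and their lowest adjusted p was 0.163 (Srxn1 without the first wild-type array). Over all genes the count of 0 became 1 with the median subtracted, 2 with spike-in scaling, 5 with the normexp background correction and 1 with the deposited log2 values. With the replicate block 0 genes and 0 of the 41 were called, with 4 of them higher and 1 lower at an unadjusted p under 0.05 and a lowest adjusted p of 0.238; same-numbered arrays had a correlation of deviations of 0.18, and no other call changed. The median over the 40 genes, 0.08, was 0.0088 after quantile normalization and -0.0014 after spike-in scaling. The number below the wild type without overlap, 9, was 11 to 17 with 1 array left out, as fewer arrays overlap less often, and highest without the first wild-type array, where 34.6% of all genes lay below. With all 4 arrays kept, the unadjusted counts of 5 higher and 2 lower lay between 2 (no filter on dim probes) and 7 (eBayes with a trend) and between 0 and 3.

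Signs turned mostly in small differences, and also in Gsta3, whose difference of -0.58 ± 0.71 had a wide error. Gclm was 0.0056 with the median subtracted, 0.0098 with the deposited values, 0.14 as the mean of its probes, and -0.15 to 0.13 with 1 array left out. Spike-in scaling gave Glrx -0.0073, Nfe2l2 -0.032, Nqo1 -0.061 and Txnip -0.075. Quantile normalization gave Gpx1 -0.0053, Txn1 -0.044 and Txnip -0.025. The mean of all probes gave Nfe2l2 -0.30 and Sod1 -0.25, and normexp gave Txnrd2 0.056. With 1 array left out, Glrx ranged from -0.12 to 0.26, Gpx3 from -0.29 to 0.082, Gsta3 from -1.55 to 0.40, Mgst3 from -0.48 to 0.015, Nfe2l2 from -0.038 to 0.14, Nqo1 from -0.26 to 0.30, Prdx3 from -0.033 to 0.23, Txn1 from -0.038 to 0.21, Txnip from -0.32 to 0.33 and Txnrd2 from -0.048 to 0.0033. The cause was not tested. Signal over background limits Gpx7 and Gstt1, which have only a bound in the wild type, and Gsta4, which has no value.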

Other observations

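Of the genes named above, 3 act one after another on leukotriene C4, a glutathione conjugate: Ltc4s joins glutathione to leukotriene A4, Ggt5 removes the glutamate to give leukotriene D4, and Dpep2 splits that to leukotriene E4. They were brought together after their values were seen. Ltc4s stood at 0.21 and 0.66 on the knockout arrays, against -1.85 and -0.93 on the wild-type arrays. Ggt5 stood at -0.34 and 0.30 on the knockout arrays, against -1.57 and -1.01 on the wild-type arrays. Both lay above the wild type without overlap. Dpep2 stood at -0.21 and -0.72 on the knockout arrays, against 0.25 and 0.58 on the wild-type arrays, and lay below without overlap. None of these 3 passed the test, with adjusted p of 0.249, 0.274 and 0.297. Of related genes in the list of Ggt5 and Dpep2, Ggt1 had a difference of 0.46 ± 0.32 with overlap. Ggt6, Ggt7 and Dpep1 cleared the background on none of the 4 arrays. Alox5ap, the protein that hands arachidonate to the first enzyme of leukotriene synthesis, stood at 6.87 and 7.03 on the knockout arrays, against 6.68 and 7.36 on the wild-type arrays, with a difference of -0.07 ± 0.26 and full overlap.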
